A study of Mus musculus with 21 samples.

Results

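The data are 3 gene expression arrays from untreated mouse aortic smooth muscle cells, one each taken 2, 6 and 24 h after PBS was added in place of a stimulus. They were chosen by their labels, as the control arrays numbered 0, and are 3 of the 21 arrays of the series. The cells were grown out of aortas of C57BL/6J mice, male and aged 10 to 12 weeks, and were kept in DMEM/F12 medium with 10% fetal calf serum. Medium was renewed every 48 h and last changed 24 h before PBS was added, so the 3 cultures were sampled 26, 30 and 48 h after that change. Of the other arrays, 6 also numbered 0 were used beside them: cultures given an agonist antibody to the lymphotoxin β receptor (anti-LTBR, 10 µg/ml) and cultures given tumour necrosis factor (TNF, 1 ng/ml), at the same 3 times. The 24 h control was deposited 4 times, numbered 0 to 3. With 1 array at 2 h and 1 at 6 h there is no test between times and no replicate error for them. The labels do not say whether the numbers stand for separate cultures or animals, nor whether arrays of the same number share their starting cells.

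Untreated arrays taken hours apart record whatever a culture does by itself. Cells fed with serum first switch on immediate early genes, whose transcription factors (the FOS, JUN and EGR families) relay the growth signal, and serum also resets the circadian clock. In that clock BMAL1 and CLOCK drive their own repressors, the PER and CRY proteins, and output factors such as DBP through short DNA elements called E-boxes, so that these messages rise and fall over a day. Cell cycle genes follow the growth factors in serum, and the cholesterol synthesis genes under SREBP2 follow the cell's supply of sterol, which serum lipoproteins provide.

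The values are linear array signals, and on every array their mean without the highest and lowest 2% was 500.0. Differences are given as log2(signal + 10.2), where 1 unit is a 2-fold difference in signal plus that constant. Of 18193 genes on the array, 11980 were counted: those that exceeded the array median at 2, 6 or 24 h with PBS. The median signal was 106.8 at 2 h, 111.4 at 6 h and 121.8 at 24 h. Signals compare 1 gene between arrays and do not rank genes, since each probe set has its own response.

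The cells carried smooth muscle and endothelial messages together. Acta2, the smooth muscle actin, read 18329, 17593 and 17546 at 2, 6 and 24 h, and Tagln, an actin-binding protein of the same cells, read 14573, 14532 and 13766. Myh11, the smooth muscle myosin heavy chain that marks mature contractile cells, was near the array median at 186, 193 and 152. Pecam1, the endothelial adhesion molecule CD31, read 4198, 4734 and 4438, and Emcn, an endothelial sialomucin, read 8669, 8714 and 9143. Of 24 endothelial markers 22 were counted, and their summed signal was 27365, 28158 and 29376 at the 3 times. The controls numbered 1 to 3 at 24 h differed: Pecam1 read 319, 96.6 and 68.6 there, Emcn read 1043, 169.9 and 221, and Myh11 read 822, 3338 and 2519. The 24 h control numbered 0 was above the 3 others in 18 of the 22 endothelial markers, against 27.1% of all genes counted. Every comparison below with all 4 controls at 24 h includes that difference, and its part in them was not tested. In bulk cultures fewer cells of a type and less RNA per cell cannot be told apart.

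Some markers of other cell types were above the array median. Of the macrophage markers on the array 7 of 16 were counted. Their highest signal was 549 (Csf1r, the receptor for a macrophage growth factor, at 24 h). For lymphocytes 3 of 12 were counted and for adipocytes 5 of 9, beside 11980 of all 18193 genes. Ptprc, Tyrobp and C1qa (macrophages), Cd3e and Cd79a (lymphocytes) and Adipoq (adipocytes) were not counted. Csf1r was 394, 468 and 549 at the 3 times. The median difference of the macrophage list was 0.098 from 2 to 6 h with PBS, 0.048 with the antibody and -0.14 with TNF. From 2 to 24 h it was 0.45 with PBS, -0.12 with the antibody and -0.20 with TNF. From 2 to 24 h the 3 lymphocyte markers had a median of 0.11, the 5 adipocyte markers -0.46, the 8 fibroblast markers 0.063 and the 8 smooth muscle markers -0.073. Their part in the results was not tested.

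Across all genes the 3 cultures were close to each other. The median absolute log2 difference between arrays was 0.112 from 2 to 6 h, 0.139 from 6 to 24 h and 0.141 from 2 to 24 h. The control arrays differed from the antibody arrays of the same time by 0.104 to 0.149. The 24 h control numbered 0 differed from the 24 h controls numbered 1 to 3 by 0.208 to 0.235. The arrays numbered 0 thus lay closer to each other across times than the 24 h controls lay across numbers. Ratios of 3′ to 5′ probe sets, a sign of RNA quality, were 0.726 to 0.76 for Gapdh and 1.201 to 1.249 for Actb on the 3 arrays.

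Few genes differed by 2-fold. From 2 to 6 h 66 genes (0.551%) were higher and 84 (0.701%) lower by at least 2-fold. From 6 to 24 h 205 (1.71%) were higher and 92 (0.768%) lower, and from 2 to 24 h 172 (1.44%) were higher and 78 (0.651%) lower. The 3 differences share arrays and are given side by side only. Higher genes made up 69.0% of those past 2-fold from 6 to 24 h and 68.8% from 2 to 24 h. With the arrays set to equal medians, which puts the median of all genes at -0.108 and -0.172, those shares were 57.2% and 48.0%, so the balance of higher and lower genes depends on the scaling.

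Nearly all of these genes were dim. Of the 250 genes past 2-fold from 2 to 24 h, 136 had a mean signal under 100 and 99 had one of 100 to 300. Of 4434 genes with a mean signal of at least 1000, 1 was past 2-fold from 2 to 6 h, 2 from 6 to 24 h and 3 from 2 to 24 h. The SD of the 2 to 24 h difference over genes was 1.06 under a signal of 100 and 0.153 at 1000 or more. Among counted genes a 2-fold difference was thus common in dim ones and rare in bright ones. A counted gene with a mean under 100 had to exceed the array median on at least 1 array. The filter itself therefore favours large differences among the dim genes.

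**Figure D1:**
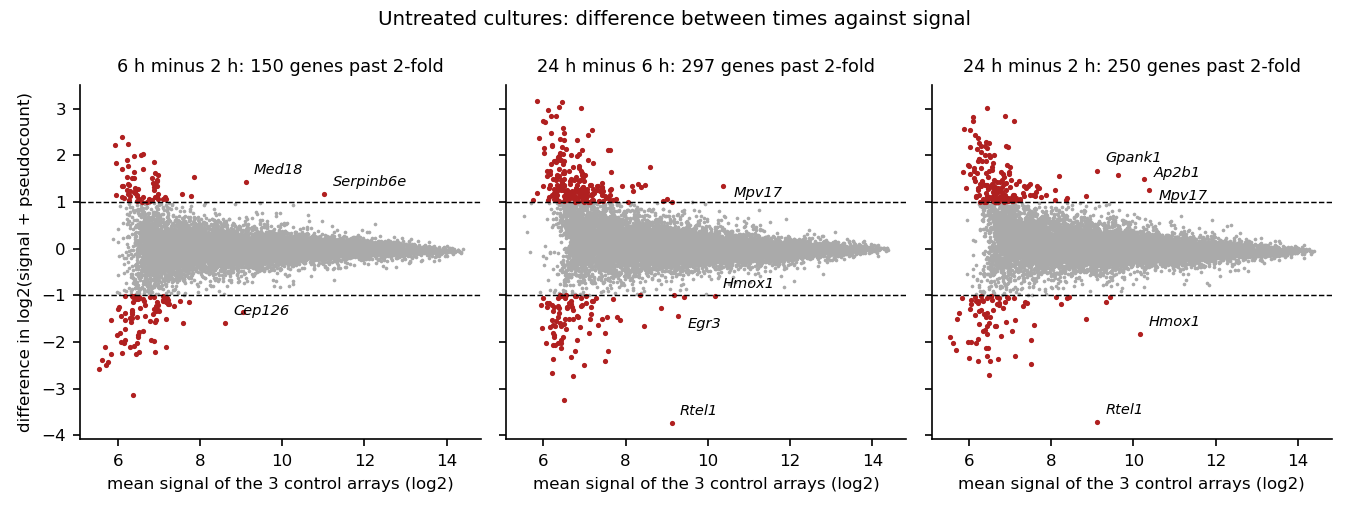
Difference between 2 control arrays (y axis, log2 of signal plus 10.2) against the log2 mean signal of the 3 control arrays (x axis), 1 point per gene for 11980 genes, with dashed lines at 2-fold and genes past it in red. The red points crowd at the left, and at a mean signal of 1000 or more only Serpinb6e, Hmox1, Mpv17 and Ap2b1 lie beyond the lines.

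The bright exceptions were 4 genes. Hmox1, heme oxygenase 1, a heme-degrading enzyme and NRF2 target, read 1868, 1065 and 519 at 2, 6 and 24 h, a log2 difference of -1.83 over the whole span. It was also lower at each later time on the antibody arrays (1755, 1453 and 1192) and on the TNF arrays (1618, 1189.8 and 913). The 24 h controls numbered 1 to 3 read 924, 1795 and 1907, so 2 of those 3 were near the 2 h level of the array numbered 0. Mpv17, which encodes a protein of the inner mitochondrial membrane, read 908, 862 and 2199, with 852, 872 and 2018 on the antibody arrays and 779, 1059 and 1019 on the TNF arrays. The step between 6 and 24 h was present with PBS and with the antibody and not with TNF.

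Serpinb6e, a serine protease inhibitor gene of the clade B family, peaked at 6 h. It read 1346, 3042 and 1841 on the control arrays, 1526, 2554 and 1772 with the antibody and 2201, 2741 and 1803 with TNF, highest at 6 h each time. Ap2b1, a subunit of the clathrin adaptor, read 636, 1222 and 1803, a difference of 1.49 from 2 to 24 h, while its other probe set above the array median differed by 0.15. On the antibody and TNF arrays Ap2b1 differed by -0.056 and -0.024 over the same span, and the other 24 h controls read 452, 453 and 738.

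Several of the largest differences belonged to 1 probe set or 1 array. Rtel1, a helicase that protects telomeres, had the largest fall from 2 to 24 h (807, 814 and 51.5, log2 difference -3.73). Its 2 other probe sets above the median differed by 0.17 and 0.18, and its low point was at 6 h with the antibody (513, 136 and 577) and with TNF (532, 48.0 and 567). Cep126, a centrosomal protein gene, read 479, 152 and 536 with PBS and 123, 332 and 367 with the antibody. Med18, a subunit of the Mediator complex, read 237, 652 and 772 with PBS and 371, 189 and 498 with the antibody, and the other 24 h controls read 629, 630.2 and 599. Gpank1 read 425, 646 and 1298 with PBS and 586, 731 and 1198 with the antibody, but 604, 697 and 554 with TNF, and its other probe set above the median differed by -0.022 from 2 to 24 h. Of these 4 genes none had the same 2-fold difference in both treated series.

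The largest rises from 2 to 24 h among genes with a highest signal above 2 array medians were led by Sypl2 (25.1, 82.5 and 244), a synaptophysin-like membrane protein of muscle, and Klk1b21 (39.0, 50.7 and 318), a kallikrein. The largest falls after Rtel1 were Zfp1 (258, 248 and 38.3), a zinc finger gene, and Pole (223, 158 and 37.4), the catalytic subunit of DNA polymerase epsilon. Ptprcap, which encodes a protein bound to a lymphocyte phosphatase, had the largest peak at 6 h (80.3, 262 and 38.2). All 5 were dim. Pole was highest at 24 h with the antibody (210.3, 129 and 238), and Ptprcap peaked at 6 h with the antibody (31.0, 198 and 24.6) but not with TNF (28.8, 26.5 and 23.3).

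The treated series share no array with the controls, but their differences between times also hold the response to the agent. The median of the NF-κB targets from 2 to 24 h was -0.87 with TNF and -0.002 with PBS. The treated series thus show which differences have the same direction there and are no repeat of the untreated cultures. The part of the agents in any count over all 3 series was not tested. Of the 66 genes higher and 84 lower by 2-fold from 2 to 6 h, 1 each was past 2-fold in the same direction in all 3 series: Gm30058, a predicted gene, higher, and Sned1, a matrix protein gene, lower. From 6 to 24 h there were 3 higher (1700028E10Rik, A930016O22Rik and Sypl2) and 4 lower (Egr2, Egr3, Grin3b and Morn3). From 2 to 24 h there were none higher and 3 lower (9630015K15Rik, Osgin1 and Vsig2). Egr3 was the brightest of these genes. A same sign in both treated series, of any size, was found for 37 of the 92 genes lower by 2-fold from 6 to 24 h (40.2%, against 25.9% of all genes) and for 40 of the 172 higher from 2 to 24 h (23.3%, against 35.7%).

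The 32 gene lists, chosen for this tissue and design, held 567 counted genes, and 12 of them were past 2-fold in any difference. By difference, 3 of 567 were past it from 2 to 6 h, against 1.25% of all genes. The counts were 8 of 567 from 6 to 24 h, against 2.48%, and 9 of 567 from 2 to 24 h, against 2.09%. The lists were thus not above the share of all genes in any difference. From 2 to 6 h these were Oas1a, Rsad2 and Zbtb16, all higher. From 6 to 24 h Bhlhe41 and Dpep1 were higher and Egr2, Egr3, Hmox1, Mfap4, Osgin1 and Pole lower. From 2 to 24 h Bhlhe41, Flt4, Oas1a, Rsad2 and Zbtb16 were higher and Hmox1, Mfap4, Osgin1 and Pole lower. Zbtb16, a zinc finger gene that glucocorticoids induce, read 31.7, 142 and 183, with 229, 145 and 149 in the other 24 h controls, but 170.2, 142 and 115 with TNF. Flt4, the lymphatic growth factor receptor, read 76.2, 157 and 166, and Mfap4, a microfibril protein, read 74.9, 123 and 27.9 and was higher in 2 of the other 24 h controls (61.4, 1150.0 and 1306). All 3 were dim on the arrays numbered 0, and the lowest values of Zbtb16 and Mfap4, on which their 2-fold differences rest, were far below the array median.

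**Figure D2:**
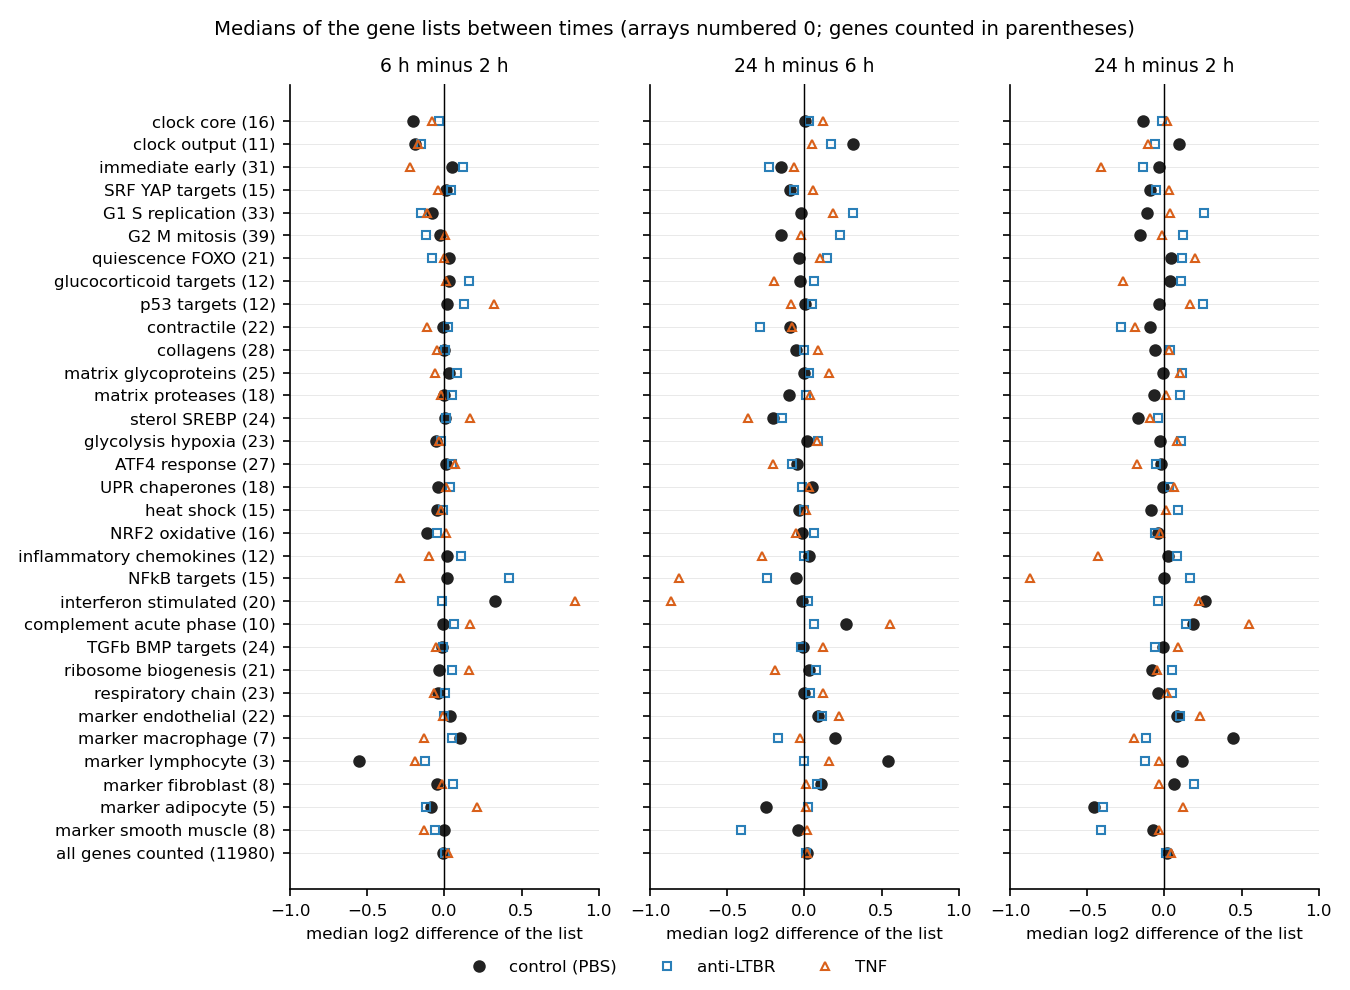
Median log2 difference of each gene list (rows, with the number of genes counted) from 2 to 6 h, 6 to 24 h and 2 to 24 h; filled circles are the control arrays, squares the antibody arrays and triangles the TNF arrays, all numbered 0. Control medians lie near 0 for most lists, with both clock lists left of 0 at 6 h (the output list is at 0.013 with probe sets averaged) and the sterol list left of 0 at 24 h.

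The clock lists had lower medians at 6 h than at 2 h. The 16 counted core clock genes had a median difference of -0.20 from 2 to 6 h, and the 11 counted output genes one of -0.19, against -0.009 for all genes. With the antibody these medians were -0.034 and -0.15, and with TNF -0.081 and -0.17. The output genes then stood 0.32 higher at 24 h than at 6 h, while the core median was 0.005 (-0.12 with equal array medians). Of the core genes 13 of 16 were lower at 24 h than at 2 h with PBS, against 47.1% of all genes, and 5 of 16 in all 3 series, against 14.9%. On the control arrays 7 of 16 core and 7 of 11 output genes were lowest at 6 h, against 34.8% of all genes. In all 3 series alike 5 of 16 core genes (Per3, Nr1d1, Nr1d2, Rora and Ciart) and 3 of 11 output genes (Dbp, Tef and Usp2) were lowest at 6 h, against 4.06% of all genes. With equal array medians the counts were 3 of 16 and 4 of 11, against 5.7%. Other lists shared this low point in all 3 series, with 6 of 33 replication and 3 of 21 quiescence genes. For the 16 NRF2 targets and 22 endothelial markers the counts were 0 and 2. With equal medians these lists had 5, 2, 3 and 3, in the same order. When all probe sets of a gene were averaged, the core median from 2 to 6 h was -0.11 and the output median turned to 0.013. Of the other probe sets above the array median 7 of 18 for core genes, near the 34.8% of all genes, and 4 of 6 for output genes were lowest at 6 h.

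Dbp, an output factor that binds D-box elements and follows the clock with a wide swing in many tissues, had a low point at 6 h. It read 1508, 1092 and 1464 at 2, 6 and 24 h with PBS, 1542, 771 and 1621 with the antibody and 938, 731 and 1553 with TNF. The 6 h value was the lowest in each series. The 4 controls at 24 h averaged 1893 ± 510.5 (SD, n = 4), and all 4 were above the 6 h control. The other Dbp probe set above the median gave -0.46 from 2 to 6 h and 0.55 from 6 to 24 h, beside -0.46 and 0.42.

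Tef, the thyrotroph embryonic factor of the same family, followed at a smaller size. It read 1781, 1505 and 1874 with PBS, 1706, 1446 and 1633 with the antibody and 1433, 1274 and 1806 with TNF, and 1989.8 ± 91.7 (SD, n = 4) over the 24 h controls. Nr1d2, the repressor REV-ERBβ, read 3175, 2619.5 and 3051 with PBS, 3024, 2579 and 3018 with the antibody and 3324, 2442 and 3355 with TNF. Its 4 controls at 24 h lay within 3023 to 3193, and every 6 h array was below that range. Nr1d1, REV-ERBα, read 442, 356 and 422, 404, 265 and 462 and 333, 324 and 432 in the same order of series, and 1 of the 24 h controls (338) was below its 6 h control. At 6 h Tef and Nr1d2 were thus below the spread of the 24 h controls, and Nr1d1 was not. A second, dimmer probe set of Tef gave -0.12 from 2 to 6 h with PBS and 0.23 with the antibody, and one of Nr1d2 gave -0.51 with PBS and 0.053 with the antibody.

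Usp2, a deubiquitinase under clock control, read 415, 252 and 458 with PBS, and Ciart, a repressor of the BMAL1 and CLOCK pair, read 252, 165 and 238. Both were lowest at 6 h also with the antibody (440.0, 363 and 439 for Usp2, 229, 205 and 215 for Ciart) and with TNF (404, 356 and 369 and 245, 201 and 249). The other Usp2 probe set above the median was lowest at 24 h with PBS. Over the list 6 of 16 core and 5 of 11 output genes had a 6 h control below all 4 controls at 24 h, against 26.1% of all genes.

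**Figure D3:**
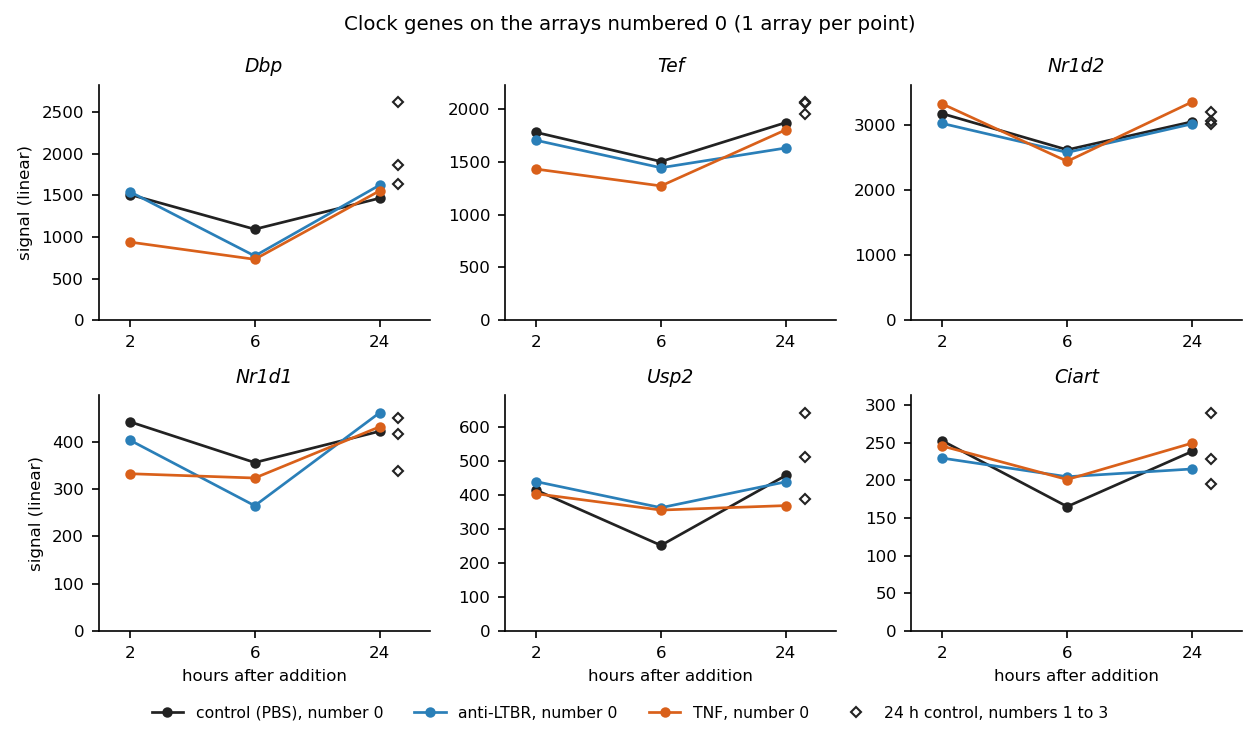
Signal (y axis, linear, from 0) of 6 clock genes at 2, 6 and 24 h (equally spaced on the x axis) on the arrays numbered 0, with lines joining the arrays of 1 agent and open diamonds for the 24 h controls numbered 1 to 3. The 6 h point is the lowest of each line; for Dbp it is 1092 with PBS, 771 with the antibody and 731 with TNF.

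The E-box, the element through which BMAL1 and CLOCK act, was looked for as the letters CACGTG, which read the same on both strands, in the 250 bases before and 50 after each gene's start (RefSeq, mouse build GRCm38.p6). Of the core clock genes 13 had such a window and 4 held the letters (Per1, Cry1, Bhlhe41 and Ciart), and of the output genes 2 of 9 did (Tef and Tspan4), against 8.1% of 27025 genes. The windows of Ciart and Tef are shown because they hold the letters and both genes had the 6 h low point in every series. Per1, Cry1, Bhlhe41 and Tspan4 hold the letters too but did not have that low point in every series. Each is the 250 bases before the start, 5′ to 3′ on the gene's strand, with the E-boxes in capitals.
Ciart: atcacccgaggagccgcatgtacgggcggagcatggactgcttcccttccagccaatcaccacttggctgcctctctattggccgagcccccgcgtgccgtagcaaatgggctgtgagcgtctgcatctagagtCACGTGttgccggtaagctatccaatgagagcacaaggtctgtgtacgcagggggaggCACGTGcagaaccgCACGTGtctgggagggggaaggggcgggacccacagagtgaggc
Tef: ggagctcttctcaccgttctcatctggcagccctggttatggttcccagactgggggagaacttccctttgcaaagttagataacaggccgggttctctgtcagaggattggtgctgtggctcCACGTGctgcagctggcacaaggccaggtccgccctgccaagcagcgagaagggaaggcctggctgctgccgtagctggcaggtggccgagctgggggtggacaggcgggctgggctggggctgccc
The Ciart window is at chr3:95882229-95882478 on the minus strand and holds 3 E-boxes, whose first bases lie at -116, -58 and -44 from the start. The Tef window is at chr15:81802423-81802672 on the plus strand, with 1 E-box at -127, and a second listed Tef start also has 1, at -138. The windows of Dbp, Nr1d1, Nr1d2, Usp2 and Per3, genes with the 6 h low point in every series, did not hold these letters. That says only that the letters are not in these windows.

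The other limb of the clock did not show 1 shared pattern. Arntl, which encodes BMAL1, read 694, 482 and 751 with PBS, but 368, 490.2 and 401 with the antibody and 281, 774 and 566 with TNF, highest at 6 h in both. Clock read 1239.8, 1263 and 1139 and Per1, a repressor that serum induces early, read 323, 336 and 341, all within 0.15 of each other on the log2 scale. Per2 was 273, 236 and 235, with a 24 h value below the other 3 controls (318, 362 and 374). Cry1 and Cry2, the cryptochrome repressors, were lower at each later time (329, 266 and 178 and 386, 267 and 236). Cry1 was lowest at 24 h with TNF too (306, 318 and 218), and Cry2 was highest then (236, 253 and 332). Per3 and Rora, an activator of Arntl, were lowest at 6 h in all 3 series, Per3 at 449.6, 396 and 401 and Rora at 798, 669 and 698 with PBS. Of their other probe sets above the median, 0 of 2 for Per3 and 4 of 6 for Rora were lowest at 6 h with PBS. The Per3 signal was 643, 619.8 and 655 in the other 24 h controls, above all 3 times. Bhlhe41, a repressor known as DEC2, was the 1 core gene past 2-fold (43.0, 35.9 and 136), near or below the array median, and did not repeat with the antibody (60.3, 62.0 and 63.4) or with TNF (73.6, 92.7 and 69.0).

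More than the background share of immediate early genes was lowest at 24 h. Of 31 counted, 17 were highest at 6 h on the control arrays, against 28.2% of all genes, and 2 of 31 were so in all 3 series, against 3.53%. At 24 h 18 of 31 were lowest, against 33.4% of all genes, and 13 of 31 were lowest at 24 h in all 3 series, against 6.17%. The list median was -0.15 from 6 to 24 h with PBS, -0.23 with the antibody and -0.066 with TNF. With equal medians 9 of 31 were lowest at 24 h in all 3 series, against 6.2% of all genes. With PBS 12 of 31 had a 2 h value, and 18 of 31 a 6 h value, above all 4 controls at 24 h, against 19.0% and 19.2% of all genes, although the 24 h control numbered 0 was itself above the 3 others in 19 of 31.

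Egr3, an early growth response transcription factor, had the largest difference of the list from 6 to 24 h. It read 581, 929.7 and 335 at 2, 6 and 24 h with PBS, 729, 1024 and 244 with the antibody and 1539, 569 and 207 with TNF. Its 24 h controls numbered 1 to 3 read 233, 158 and 192, all under the 24 h control numbered 0. All 4 were therefore below the 2 h and the 6 h array. A second, dimmer Egr3 probe set differed by -0.036 from 6 to 24 h with PBS and -1.18 with the antibody, against -1.44 and -2.03.

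Egr2, its close relative, read 115, 227 and 90.1 with PBS and averaged 102 ± 16.2 (SD, n = 4) over the 24 h controls. The antibody series was alike (169, 240.2 and 105), and with TNF it was high at 2 and 6 h and low at 24 h (282, 263 and 82.1). Nr4a1, the orphan nuclear receptor NUR77, read 577, 661 and 403, with 268, 212 and 253 in the other 24 h controls, and fell by 1.13 and 1.10 on the log2 scale from 6 to 24 h with the antibody and TNF. Egr2, Egr3 and Nr4a1 thus had 24 h signals below 2 and 6 h in each of the 3 series.

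Srf, the serum response factor, which with its cofactors drives many immediate early and contractile genes, read 1290.2, 1199.6 and 915 with PBS, 1306, 1046 and 923 with the antibody and 1315, 906 and 871 with TNF. The 24 h controls averaged 862 ± 107 (SD, n = 4), all below both earlier arrays. Klf4, a factor that represses smooth muscle differentiation genes, was lower at each later time in each series (2778, 2284 and 2059 with PBS), but the 24 h controls numbered 1 to 3 read 4309, 3389 and 4181, above it. A second Klf4 probe set with PBS was higher at 24 h than at 6 h, by 0.60.

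Other members, among them the best known, did not share this order. Fos read 1074, 1062 and 1480.0 with PBS and was highest at 24 h in all 3 series, and Junb read 534, 430.3 and 599. Egr1, the founding member of the EGR family, read 3849, 5544 and 5402 with PBS and was lowest at 2 h in all 3 series. Ier3, Jund and Rhob differed by less than 0.1 between any pair of control arrays from 2 to 24 h. Myc, the growth regulator, peaked at 6 h with PBS (536, 748 and 568) and with the antibody (571, 1127 and 959).

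**Figure D4:**
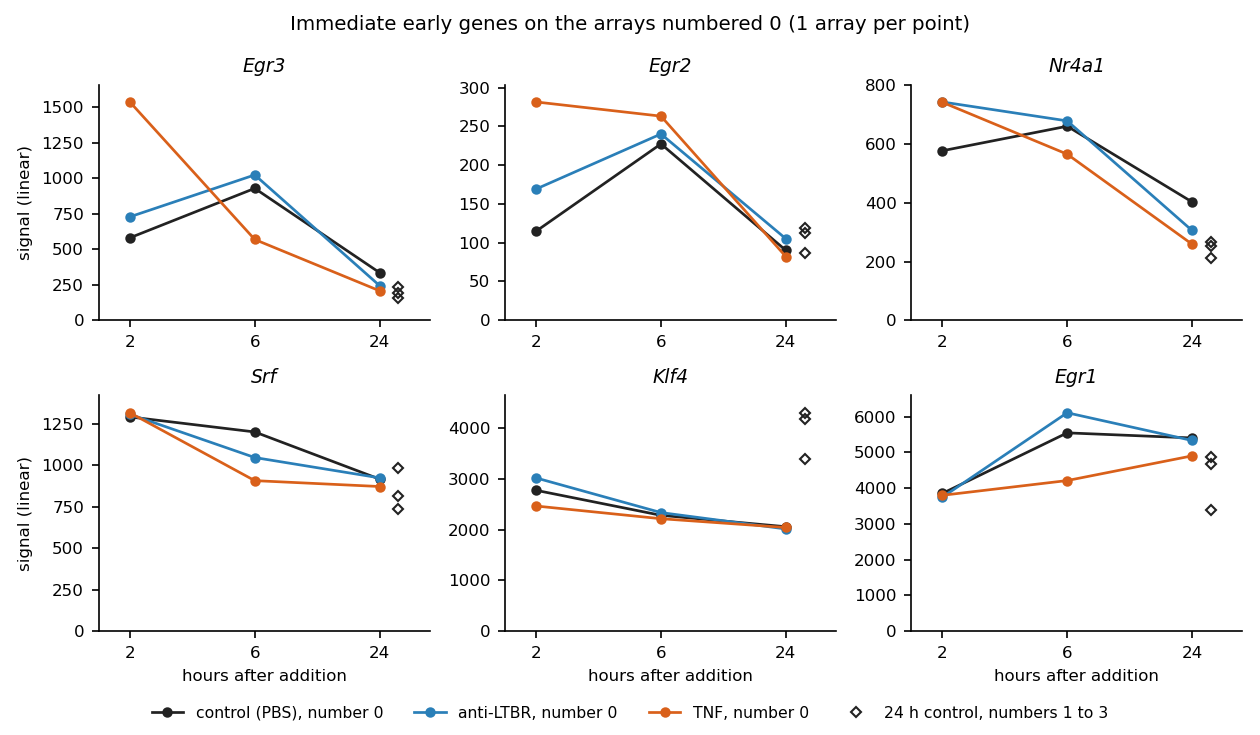
Signal (y axis, linear, from 0) of 6 immediate early or serum response genes at 2, 6 and 24 h (equally spaced) on the arrays numbered 0, with open diamonds for the 24 h controls numbered 1 to 3. Egr3, Egr2, Nr4a1 and Srf end at their lowest point in every series, with Egr3 at 335 under PBS, while Egr1 starts at its lowest.

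SRF binds the CArG box, which was looked for in the same promoter windows on both strands, a search added after the values were seen. It was present in 4 of the 23 immediate early genes with a window (Egr2, Dusp5, Srf and Zfp36), or 17.4%, and in 1.8% of all 27025 genes. The windows of Egr2 and Srf are shown, since they hold the box and both genes were lowest at 24 h in each series, with the CArG boxes in capitals.
Egr2: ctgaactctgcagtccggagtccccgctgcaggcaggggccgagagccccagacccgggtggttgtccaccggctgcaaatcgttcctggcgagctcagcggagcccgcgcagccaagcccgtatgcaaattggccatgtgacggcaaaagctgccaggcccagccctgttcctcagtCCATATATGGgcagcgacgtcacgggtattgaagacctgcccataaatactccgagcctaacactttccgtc
Srf: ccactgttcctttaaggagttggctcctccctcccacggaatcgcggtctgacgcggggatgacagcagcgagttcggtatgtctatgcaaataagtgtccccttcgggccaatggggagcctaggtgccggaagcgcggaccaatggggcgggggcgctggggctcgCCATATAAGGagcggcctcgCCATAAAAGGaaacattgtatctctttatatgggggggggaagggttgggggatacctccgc
The Egr2 window is at chr10:67537619-67537868 on the plus strand with the box at -72 from this start, and the gene has other listed starts. The Srf window is at chr17:46556163-46556412 on the minus strand with boxes at -82 and -62. The window of Nr4a1, a gene also lowest at 24 h in each series, did not hold the box. A match is a description of the letters and shows no binding.

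Most sterol genes had a lower signal at 24 h, by small amounts. The 24 counted genes, of cholesterol and fatty acid synthesis, their SREBP regulators and cholesterol transport, had a median difference of 0.003 from 2 to 6 h, -0.20 from 6 to 24 h and -0.17 from 2 to 24 h, with none past 2-fold. On the control arrays 22 of 24 were lower at 24 h than at 2 h, against 47.1% of all genes, and 20 of 24 were lowest at 24 h. In all 3 series 10 of 24 were lower at 24 h than at 2 h, against 14.9%, and 9 of 24 were lowest at 24 h. With equal medians these were 12 and 11 of 24, against 24.0% and 6.2% of all genes. The median from 6 to 24 h was -0.15 with the antibody and -0.36 with TNF.

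Hmgcs1, HMG-CoA synthase, an early enzyme of the cholesterol pathway, read 6597, 5571 and 4835 at 2, 6 and 24 h with PBS. It read 6468, 5744 and 4502 with the antibody and 6487, 7241 and 4297 with TNF, lowest at 24 h in each. The 4 controls at 24 h averaged 5055 ± 763 (SD, n = 4), all below the 2 h array, and 1 of them above the 6 h array. Its 3 other bright probe sets differed by -0.43, -0.32 and -0.51 from 2 to 24 h, beside -0.45.

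Later steps of the pathway differed by a similar amount. Idi1, the isomerase of the isoprene units, read 2507, 2514 and 1976, Cyp51, the lanosterol demethylase, read 1906, 1976 and 1546, and Msmo1, the sterol methyl oxidase, read 3384, 3426 and 2709. From 6 to 24 h their differences were -0.35, -0.35 and -0.34 with PBS. With the antibody they were -0.25, -0.44 and -0.36, and with TNF -0.74, -0.54 and -0.66. All 3 genes were lowest at 24 h in each series.

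Insig1, which holds SREBP back in the endoplasmic reticulum and is itself an SREBP target, read 1838, 1803 and 1452, and its 4 controls at 24 h averaged 1318 ± 211 (SD, n = 4), all below both earlier arrays. Stard4, a cholesterol carrier, read 1274, 1202 and 1193, against 409.6, 641 and 653 in the other 24 h controls. Of its 2 other probe sets above the median, 0 were lower at 24 h than at 2 h with PBS. Of 24 members 12 had a 2 h control above all 4 controls at 24 h, against 19.0% of all genes, and 12 had a 6 h control above them, against 19.2%. For Idi1, Msmo1 and Fdft1 the 24 h control numbered 2 was above the 2 h array. Nsdhl and Hsd17b7, enzymes of late steps, were the 2 members with a higher signal at 24 h than at 2 h, by 0.063 and 0.089. Of 23 other probe sets above the median, from 15 of these genes, 16 were lowest at 24 h.

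The list also holds genes of fatty acid synthesis and cholesterol export. Fasn, fatty acid synthase, read 2732, 2635 and 2634, Acly, which supplies acetyl-CoA, read 3047, 3204 and 2952, and Srebf1, the factor that governs this arm, read 1940.2, 1799 and 1776. Abca1, which exports cholesterol and is controlled by the liver X receptors, read 1883, 1728 and 1853. Abcg1, the other exporter, was near the array median and read 117, 129 and 92.7 with PBS, a difference of -0.44 from 6 to 24 h, with -0.55 with the antibody and -0.45 with TNF.

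**Figure D5:**
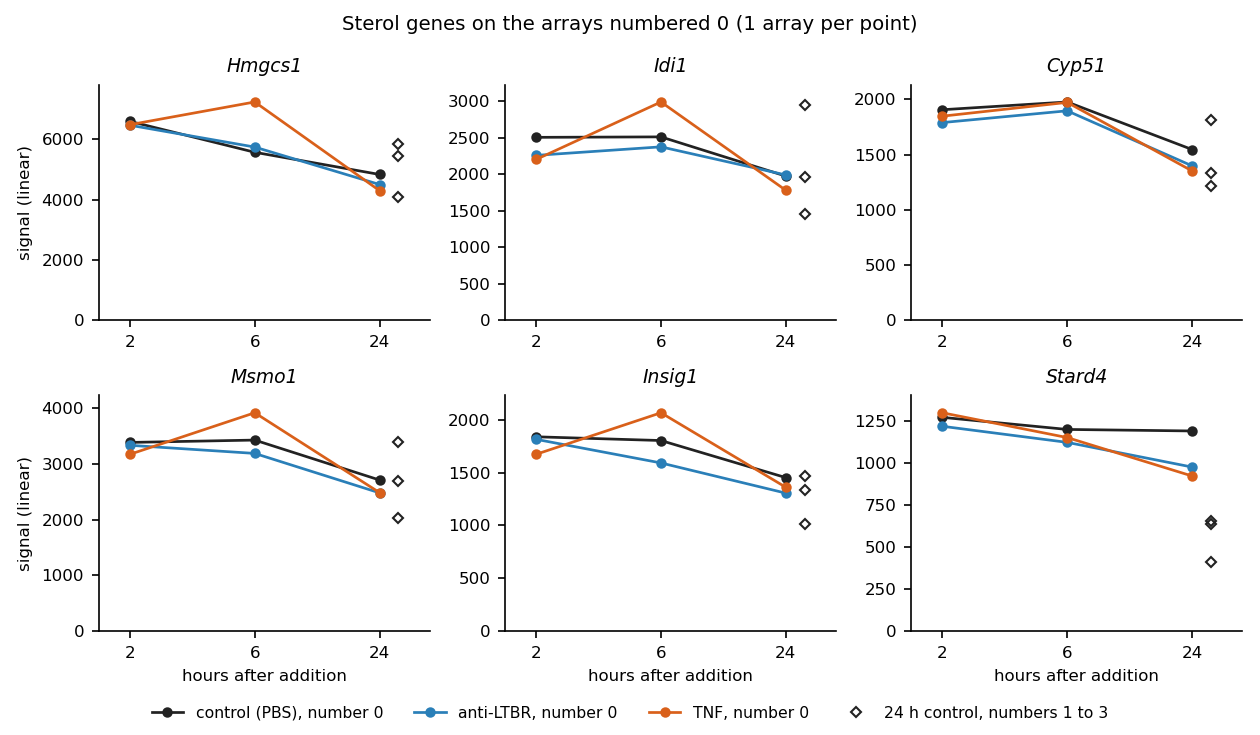
Signal (y axis, linear, from 0) of 6 sterol genes at 2, 6 and 24 h (equally spaced) on the arrays numbered 0, with open diamonds for the 24 h controls numbered 1 to 3. The 24 h point is the lowest of every line; Hmgcs1 goes from 6597 to 4835 with PBS, and its diamonds lie at 4098, 5851 and 5438.

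The sterol regulatory element was looked for as TCACNCCAC on both strands, and the CCAAT box bound by NF-Y, a partner of SREBP, as CCAAT on both strands. The search for the sterol element and that for CCAAT in the sterol list were added after the values were seen. Of 17 sterol genes with a promoter window 1 held the sterol element (Hmgcs1, shown with the element in capitals), against 1.4% of all genes. The CCAAT letters were in 16 of 17, against 41.1%. In the G2 and mitosis list, for which the CCAAT search was planned, they were in 25 of 33.
Hmgcs1: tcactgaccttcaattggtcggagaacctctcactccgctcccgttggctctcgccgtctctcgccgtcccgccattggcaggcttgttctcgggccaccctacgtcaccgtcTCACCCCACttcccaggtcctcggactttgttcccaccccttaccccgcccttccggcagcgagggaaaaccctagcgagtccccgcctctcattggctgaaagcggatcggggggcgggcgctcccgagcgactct
This window is at chr13:119690101-119690350 on the plus strand, and the element's first base lies at -137 from the start.

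Most cell cycle genes had a slightly lower signal at 24 h than at 2 h with PBS, which was not so in the treated series. The 39 counted genes of G2 and mitosis had a median of -0.030 from 2 to 6 h and -0.16 from 2 to 24 h, and 32 of 39 were lower at 24 h than at 2 h. The same median was 0.12 with the antibody and -0.015 with TNF, and 6 of 39 were lower in all 3 series, near the 14.9% of all genes. Mki67, the proliferation antigen, read 2232, 2186 and 1751, Cdk1, the mitotic kinase, read 2206, 2088 and 1901, and Ube2c, a ubiquitin carrier of mitotic exit, read 1523, 1632 and 1244. With the antibody Mki67 was 2101, 1805 and 2326, highest at 24 h.

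At 24 h 34 of 39 G2 and mitosis genes were higher in the control numbered 0 than in the 3 others, against 27.1% of all genes, and Mki67 read 679, 1059 and 727 there. The 2 h array was above all 4 controls at 24 h in 30 of 39, against 19.0%. For the 33 genes of the G1 to S transition and DNA replication the medians were -0.081, -0.024 and -0.11, with 23 of 33 lower at 24 h than at 2 h with PBS and 0 of 33 in all 3 series, against 47.1% and 14.9%. Pcna, the DNA polymerase clamp, read 5835, 5819 and 5390.0 and Ccnd1, cyclin D1, read 7615, 6734 and 7041, differences of -0.11 and -0.11 over the span. Pole alone was past 2-fold. In the promoter windows the CHR element of mitotic genes (TTTGAA, both strands) was found in 23 of 33 G2 and mitosis genes, against 20.2% of all genes, and an E2F site (TTGGCGC or TTCCCGC, both strands) in 15 of 25 genes of the G1 to S list, against 7.8%. These are shares of letters only. Of 23 immediate early genes 4 held the cyclic AMP element TGACGTC on either strand, against 3.6% of all genes.

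The contractile list had a slightly lower median at 24 h. The median of 22 counted genes was -0.092 from 2 to 24 h with PBS, -0.28 with the antibody and -0.19 with TNF. With PBS 16 of 22 were lower at 24 h than at 2 h and in all 3 series 11 of 22, against 47.1% and 14.9% of all genes. With equal medians 15 of 22 were lower in all 3 series, against 24.0%. The direction turned when the mean of the 4 controls at 24 h was used, which gave 0.113. Cnn1, the actin-binding protein calponin, read 2672, 2656 and 2056 with PBS, 2444, 2217 and 1316 with the antibody and 2333, 1925 and 1183 with TNF, and its other 24 h controls read 2293, 4124 and 2544. Acta1 and Tpm2, skeletal actin and a tropomyosin, read 745, 860.1 and 712 and 11821, 11716 and 10827 with PBS.

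The interferon-stimulated list was lowest at 2 h with PBS. The 20 counted genes had a median of 0.33 from 2 to 6 h and 0.26 from 2 to 24 h, and 17 of 20 were higher at 24 h than at 2 h, against 52.9% of all genes. In all 3 series 3 of 20 were, against 20.6% (with equal medians 3 of 20 against 8.9%), and the antibody median was -0.014 from 2 to 6 h. Irf9, a subunit of the interferon-activated transcription complex, read 492, 698 and 707 with PBS and 652, 684 and 653 with the antibody. Xaf1, an interferon-induced regulator of cell death, read 461, 668 and 593 with PBS and 484, 463 and 517 with the antibody. Oas1a and Rsad2, both antiviral enzymes, were past 2-fold but dim. Oas1a read 51.9, 129 and 200.1 with PBS and 252, 172 and 228 with the antibody, and Rsad2 was higher than at 2 h by 1.11 at 6 h and 1.01 at 24 h. For Irf9 and Oas1a the 2 h control was thus the low array of the series, below the antibody array of the same time. With TNF the list median was 0.85 from 2 to 6 h.

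Stress genes differed little as lists, and some members differed the same way in every series. Sesn2, a stress-induced regulator of growth signalling under ATF4 and p53, read 283, 558 and 539.7 with PBS, 304, 572 and 582 with the antibody and 350.4, 451 and 552 with TNF, and the 24 h controls averaged 506 ± 42.1 (SD, n = 4). All 4 were above the 2 h array, but a second, dimmer Sesn2 probe set differed by -0.52 from 2 to 24 h. The 27 counted ATF4 targets had a median of -0.025 from 2 to 24 h, and 18 of 27 were lower at 24 h than at 2 h with PBS, against 47.1% of all genes. In all 3 series 12 of 27 were lower, against 14.9% (13 with equal medians, against 24.0%), and 8 of 27 were lowest at 24 h, against 6.17%. Asns, asparagine synthetase, read 4535, 4269 and 4321 and Ddit3 (CHOP) read 1121, 1231 and 1190.2. Osgin1, an oxidative stress response gene, read 206, 308 and 59.4 with PBS, 257, 136 and 33.6 with the antibody and 209, 158 and 94.9 with TNF, a fall past 2-fold from 2 to 24 h in each, with 108, 139.6 and 21.9 in the other 24 h controls. Nqo1, Gclm and Srxn1, further NRF2 targets, differed by 0.15, -0.14 and 0.066 from 2 to 24 h, and the median of the 16 counted was -0.044.

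The other 15 lists of pathways, apart from the complement genes, had medians close to that of all genes. They cover SRF and YAP targets, quiescence, glucocorticoid and p53 targets, collagens, matrix glycoproteins and proteases, glycolysis, the unfolded protein and heat shock responses, chemokines, NF-κB and TGFβ targets, ribosome biogenesis and the respiratory chain. Their medians on the control arrays lay between -0.099 and 0.047 in every difference. Counts by direction were less even for some of these lists. Of the 15 SRF and YAP targets 12 were lower at 24 h than at 2 h with PBS, against 47.1% of all genes, and 6 in all 3 series, against 14.9%, and 5 were lowest at 24 h in all 3, against 6.17% (2 of 15 with equal medians). Their median from 2 to 24 h turned from -0.096 to 0.033 with the mean of the 4 controls at 24 h. Of the 15 heat shock genes 13 were lower with PBS and 5 in all 3 series. Of the 28 genes of the collagen list, which holds collagen chains and proteins that process them, these were 21 and 7. The shares of all genes were the same 47.1% and 14.9%. With equal medians 7 of 15 heat shock genes and 5 of 28 in the collagen list (17.9%) were lower in all 3 series, against 24.0%. The share of the collagen list was then below that of all genes. Ccn2, a matrix signalling protein and YAP target, read 19931, 19511 and 19668, and Col1a1, the collagen I chain, read 9910.1, 11038 and 9484. Ccl2, a monocyte chemokine, read 568, 689.5 and 375 with PBS, and was lower at 24 h than at 6 h with the antibody (1523, 3041 and 1617) and with TNF (9566, 10373 and 2464). Col11a1, a minor fibrillar collagen, was lower at each later time in each series, at 3845, 3643 and 3152 with PBS. The 10 counted complement and acute phase genes had medians of -0.007, 0.27 and 0.18 for 2 to 6, 6 to 24 and 2 to 24 h.

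Among brighter genes (mean signal at least 300) a few others differed alike in each series. They were picked after their values were seen. Dtx3, a ubiquitin ligase of the Deltex family, was lowest at 6 h, at 516, 259 and 374 with PBS, 463, 232 and 394 with the antibody and 443, 271 and 568 with TNF. Foxs1, a forkhead factor of perivascular cells, was lowest at 24 h. It read 804, 848 and 458 with PBS, 969.6, 1171 and 616 with the antibody and 1347, 1106 and 523 with TNF. Sost, the WNT inhibitor sclerostin, was also lowest at 24 h (722, 790.4 and 425 with PBS), though 2 of the other 24 h controls read 4434 and 5155. Dcn, the matrix proteoglycan decorin, was highest at 24 h in each series and read 729, 755 and 1104 with PBS, 741, 858 and 2165 with the antibody and 804, 1034 and 1637 with TNF. Hpse, heparanase, was highest at 24 h too, at 349, 363 and 568 with PBS, against 227, 123 and 194 in the other controls.

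Endothelial messages were at similar levels over the day as a list, though some members differed more. From 2 to 24 h with PBS Flt4 was higher by 1.03, Tek by 0.60, Sox7 by 0.52 and Gpihbp1 by 0.42. The lowest member was at -0.152. The list median was 0.039 from 2 to 6 h and 0.082 from 2 to 24 h, and -0.021 and -0.107 with equal medians. At 24 h 16 of 22 were higher than at 2 h with PBS and 11 of 22 in all 3 series, against 52.9% and 20.6% of all genes. With equal medians 4 of 22 were higher in all 3 series, against 8.9%. Cdh5, the endothelial cadherin, read 1204, 1239.7 and 1248, Vwf, von Willebrand factor, read 972, 971 and 1031, and Icam2, an adhesion molecule, read 1196, 1283 and 1466. In the other 24 h controls Cdh5 read 191, 74.0 and 130.4 and Vwf 50.9, 49.6 and 8.1. Whether the endothelial cells take part in any difference between times was not tested.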

How the data were processed

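The arrays, Affymetrix 3′ expression arrays with 45101 probe sets, were deposited as linear signal intensities made with GCOS 1.4, per the submitters' processing notes. How background was corrected and probes summarized is not stated there. The deposited intensities had a mean of 500.0 without the highest and lowest 2% on each of 21 arrays. They were converted to log2(signal + 10.2), the deposited values otherwise unchanged; 10.2 is the 10th percentile of the 24 h arrays. Of the probe sets 34958 had 1 gene in the platform annotation, 932 several and 9211 were not listed there. Each gene was represented by the probe set with the highest mean over the 3 control arrays, which favours bright sets. Groups came from the labels, and no test was run, since each time has 1 array; a gene was called higher or lower at 2-fold, 1 log2 unit.

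Named genes were drawn from the 10 largest rises and falls from 2 to 24 h, 5 each from 2 to 6 h and 6 to 24 h, and 5 peaks and 5 troughs at 6 h among genes whose highest signal exceeds 2 array medians, from the up to 4 members per list with the largest difference, and from the counted clock genes. Others illustrate a list or were picked after their values were seen. The members and lists were chosen with earlier results of these data known. Promoter windows came from RefSeq, mouse build GRCm38.p6. Alternatives covered the pseudocount, the filter on dim genes, the scaling, the probe set and the 24 h array. Scripts were tested on simulated data and used Python 3.11.15, NumPy 2.4.6, pandas 2.3.3, SciPy 1.17.1 and Matplotlib 3.10.9.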

Additional observations from a re-analysis of the deposited data

Results flagged for a closer look

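Among 171 genes examined singly, 16 (9.4%) had 1 of the 4 controls at 24 h far from the other 3. These genes were picked partly by differences that include the 24 h control numbered 0. They also share the same 4 arrays, so no share expected by chance is given. The array numbered 0, which ends the time series, was the distant one for 5 of them. Per3, a clock repressor, read 401.3 there against 619.8 to 655.3, and Errfi1, a feedback inhibitor of the EGF receptor, read 831.5 against 1709.8 to 1885.9. Cxcl1, a neutrophil chemokine, read 2487.6 against 889.0 to 1160.0. Tek, the angiopoietin receptor of endothelium, read 303.5 against 69.3 to 76.4, and Sox7, an endothelial transcription factor, read 882.5 against 57.1 to 96.7.

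The array numbered 1 was distant for Trp53inp1, a p53 target (7049.9 against 4247.5 to 4488.6), Lum, the proteoglycan lumican (1560.8 against 398.4 to 584.1), Gpx3, a glutathione peroxidase (1620.5 against 404.9 to 462.2), Pdia4, a chaperone (895.2 against 684.4 to 714.8), and Ndufs1, a complex I subunit (1164.5 against 1264.5 to 1279.9). The array numbered 2 was distant for Zmat3, a p53 target (1834.6 against 1478.3 to 1522.0), and Saa3, an acute phase gene (53.3 against 128.7 to 133.5). The array numbered 3 was distant for Zap70, a T cell kinase (1399.0 against 455.1 to 539.2), Adgre1, the macrophage antigen F4/80 (520.8 against 104.9 to 156.8), Ighm, an immunoglobulin chain (707.3 against 480.8 to 495.2), and Mvk, mevalonate kinase (195.9 against 308.6 to 322.7).

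Among the same 171 genes, picked partly for large differences with PBS, 7 changed past 2-fold in opposite directions with PBS and with an agent. Each value rests on 1 array, and the difference between series was not tested. Of all 205 genes higher by 2-fold from 6 to 24 h with PBS, 12 were past 2-fold the opposite way with the antibody and 10 the same way. With TNF these were 8 and 10. Of the 92 lower, they were 6 and 14 with the antibody and 11 and 11 with TNF. Pole, Sypl2, Atp8b3, Slc4a8 and Cysrt1, given below, were dim, with a mean signal under 300 on the control arrays. From 6 to 24 h Rtel1 differed by -3.739 with PBS, 2.004 with the antibody and 3.31 with TNF. Over the same span Pole differed by -1.818 with PBS and 1.124 with TNF, Atp8b3 by -1.634 with PBS and 2.034 with TNF, and Slc4a8 by 1.637 with PBS and -1.04 with the antibody. Cysrt1 differed by 2.118 with PBS and -1.38 with the antibody from 6 to 24 h, and by 1.133 and -1.602 from 2 to 24 h. From 2 to 6 h Cep126 differed by -1.594 with PBS, 1.364 with the antibody and 1.43 with TNF, and Sypl2 by 1.393 with PBS and -1.752 with TNF.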

How the results depend on the processing

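The number of genes past 2-fold depended on how dim genes were treated. In the order higher and lower from 2 to 6 h, 6 to 24 h and 2 to 24 h, the counts were 66, 84, 205, 92, 172 and 78. With a pseudocount of 32 they were 36, 53, 136, 60, 110 and 48. With a signal above the median required on all 3 arrays they were 4, 3, 23, 10, 19 and 8, and with no filter 538, 501, 963, 562, 900 and 459. Genes higher from 2 to 24 h numbered 106 with equal array medians and 113 after quantile normalization. With the mean of the 4 controls at 24 h, genes lower numbered 290 from 6 to 24 h and 276 from 2 to 24 h. Higher genes made up 59.2% (6 to 24 h) and 52.6% (2 to 24 h) of those past 2-fold after quantile normalization, and 47.9% and 42.3% with the 4-control mean, against 69.0% and 68.8%. A pseudocount of 1 and averaging all probe sets of a gene kept every count within 1.5 times.

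List medians of less than 0.2 could change sign, such as the clock output (0.013 from 2 to 6 h with probe sets averaged) and sterol medians (-0.058 from 2 to 6 h with equal medians) and the contractile medians (0.144 from 6 to 24 h and 0.113 from 2 to 24 h with the mean of the 4 controls at 24 h). So did some larger values. With the mean of the 4 controls at 24 h Hmox1 from 6 to 24 h became 0.089, Mfap4 0.934 from 6 to 24 h and 1.578 from 2 to 24 h. With probe sets averaged Sypl2 from 2 to 6 h became -0.381 and the lymphocyte marker median from 6 to 24 h became -0.2. The cause was not tested. Equal array medians moved 20 of the 96 list medians and 53 of the single-gene differences. Below a mean signal of 100 the SD of the log2 differences over genes was 0.912 to 1.101, so dim genes have no firm direction here. The filter kept such genes only where an array exceeded its median, which itself favours large differences. Leaving out an array was not possible with 1 per time. No paired analysis was possible because each time has 1 control array numbered 0 and no test was made.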
